A study of Mus musculus with 3 samples.

Results

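The 45S ribosomal RNA precursor locus Rn45s was examined in ovulated mouse oocytes, as the interval chr17:39979001-39986000 of the mouse genome build mm9. It is 1 annotated gene, 7 windows of 1 kb out of 303433 windows of the genome with at least 1 alignment. The locus was selected on its measured depth, as the place of the highest 1 kb window of the genome in these libraries, so its level is given as a description and without a test. The series holds 3 libraries of 1 group, 1 library from each of 3 litters, and no second group. All oocytes came from superovulated females of mixed strain that were homozygous for a floxed allele of Kdm1a (LSD1 FL/FL) and lacked the ZP3::Cre transgene, whose Zp3 promoter is active in growing oocytes. The labels call them wild type. Collection was at or before embryonic day 0.5. Oocytes were lysed directly, and total RNA was amplified by SPIA, an isothermal method that copies cDNA from a chimeric primer. The number of oocytes in a library is not given in the sources used here.

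RNA polymerase I copies the ribosomal DNA repeats into the 45S precursor, a long RNA in which the 18S, 5.8S and 28S ribosomal RNAs are separated and flanked by spacers. The spacers are cut away and degraded, while the 18S RNA becomes the core of the small ribosomal subunit and the 5.8S and 28S RNAs become part of the large subunit. A growing oocyte builds up a large store of ribosomes. Transcription by RNA polymerase I falls silent before ovulation, so ribosomal RNA of an ovulated oocyte is largely stored, mature RNA.

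The files hold depth along mm9, and no mm9 annotation was at hand. The 18S part was therefore placed from the depth itself with a sequence of another build. The first transcript of CT010467.1 in GENCODE release M21 and the RefSeq gene Rn18s-rs5, both of the build GRCm38, carry an 18S sequence of 1849 bases. Its longest run of a single base is 14 G, at 18S bases 203 to 216 counted from the 5′ end. Inside the deep part of the interval, the longest stretch in which no alignment began in any library was 58 bases, chr17:39983443-39983500, and the next longest was 11 bases. An alignment of 72 bases that holds the whole run and the base to its left can begin at exactly 58 bases. Matching these stretches set 18S base 1 at chr17:39983299 and the last base at chr17:39985147, with the RNA reading in the direction of rising coordinates. The match would be as good 1 base to the left if the base to the right of the run were required. Depth gave a separate check, since it first reached 100 alignments at bases 39983297, 39983298 and 39983300 in litters 1, 2 and 3.

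The stretches that the results turn on are printed 5′ to 3′ from the GENCODE transcript, reverse complemented, because it is annotated on the opposite strand. The capitals mark, in order, the first 20 bases of 18S, the run of G, and the 3′ end from base 1755 on, where depth had nearly ended. The bin of highest depth has no capitals.
18S bases 1 to 80: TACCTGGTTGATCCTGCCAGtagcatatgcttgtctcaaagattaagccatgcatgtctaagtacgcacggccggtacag
18S bases 143 to 276: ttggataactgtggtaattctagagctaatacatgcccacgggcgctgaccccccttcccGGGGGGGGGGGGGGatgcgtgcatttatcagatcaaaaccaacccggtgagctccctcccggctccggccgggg
18S bases 1603 to 1702: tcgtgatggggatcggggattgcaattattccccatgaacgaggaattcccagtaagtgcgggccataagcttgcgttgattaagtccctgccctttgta
18S bases 1730 to 1849: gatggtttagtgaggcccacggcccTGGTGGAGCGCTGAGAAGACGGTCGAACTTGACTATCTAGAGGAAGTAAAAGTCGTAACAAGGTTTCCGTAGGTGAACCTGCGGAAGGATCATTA

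In litters 1, 2 and 3 the whole interval held 1564743, 1279178 and 703044 alignments. The library totals were 35183199, 31787887 and 32028802 alignments. The locus thus took 4.45%, 4.02% and 2.20% of the libraries. The 95% Wilson intervals ran from 4.44% to 4.45%, from 4.02% to 4.03% and from 2.19% to 2.20%. Scaled to a library of 1000000 alignments (CPM), the levels were 44474, 40241 and 21950 CPM, with a mean of 35555 ± 11971 CPM (SD, n = 3). Litter 1 was highest, litter 2 close below it, and litter 3 lowest. The intervals did not overlap, but they cover counting error only and leave out the spread between oocyte samples of 1 litter, which was not measured. Fewer copies per oocyte and more of other RNA in the library cannot be told apart in such shares.

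Litter 3 stood at 0.518 times the mean of litters 1 and 2. Other high windows of the genome did not share this shift as a group. Among 1044 windows of 1 kb outside the locus that averaged 100 CPM or more, the same ratio had a median of 1.16, with quartiles of 0.611 and 2.10. A total of 199 of them (19.1%) had a lower ratio than the locus. Of the 7 windows of the locus, 3 were lowest in litter 3. Among the 10911 other windows that averaged 10 CPM or more, 40.4% were lowest in litter 3. Among those that averaged 100 CPM or more it was 40.6%. In the locus only chr17:39983001-39984000 and chr17:39984001-39985000 reach these limits, with means of 5094 and 30457 CPM. Both were lowest in litter 3. The third, chr17:39985001-39986000, averaged 2.86 CPM. The count of 3 in 7 includes windows below the limits, so it cannot be set against this background. With so few windows it is a description only.

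The 7 windows differed far more from each other than the litters did. The window chr17:39984001-39985000 held 1332996, 1047542 and 657586 alignments in litters 1, 2 and 3, or 37887, 32954 and 20531 CPM, and ranked 1 in each library. It held 85.2%, 81.9% and 93.5% of the locus (86.9% ± 6.0, SD, n = 3). The window before it, chr17:39983001-39984000, held 231489, 231501 and 45444 alignments. At 6580, 7283 and 1419 CPM it ranked 17, 14 and 65 in the 3 libraries. Litter 3 stood at 0.580 times the mean of the other two litters in the highest window and at 0.205 times in this one. The window after them, chr17:39985001-39986000, held 147, 128 and 12 alignments. The 4 windows from 39979001 to 39983000 held 2, 27, 2 and 80 alignments in litter 1, while in litters 2 and 3 the window at 39981001 held 7 and 2 and the other 3 windows held 0. No alignment lay in the 20000 bases on either side of the interval.

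**Figure D1:**
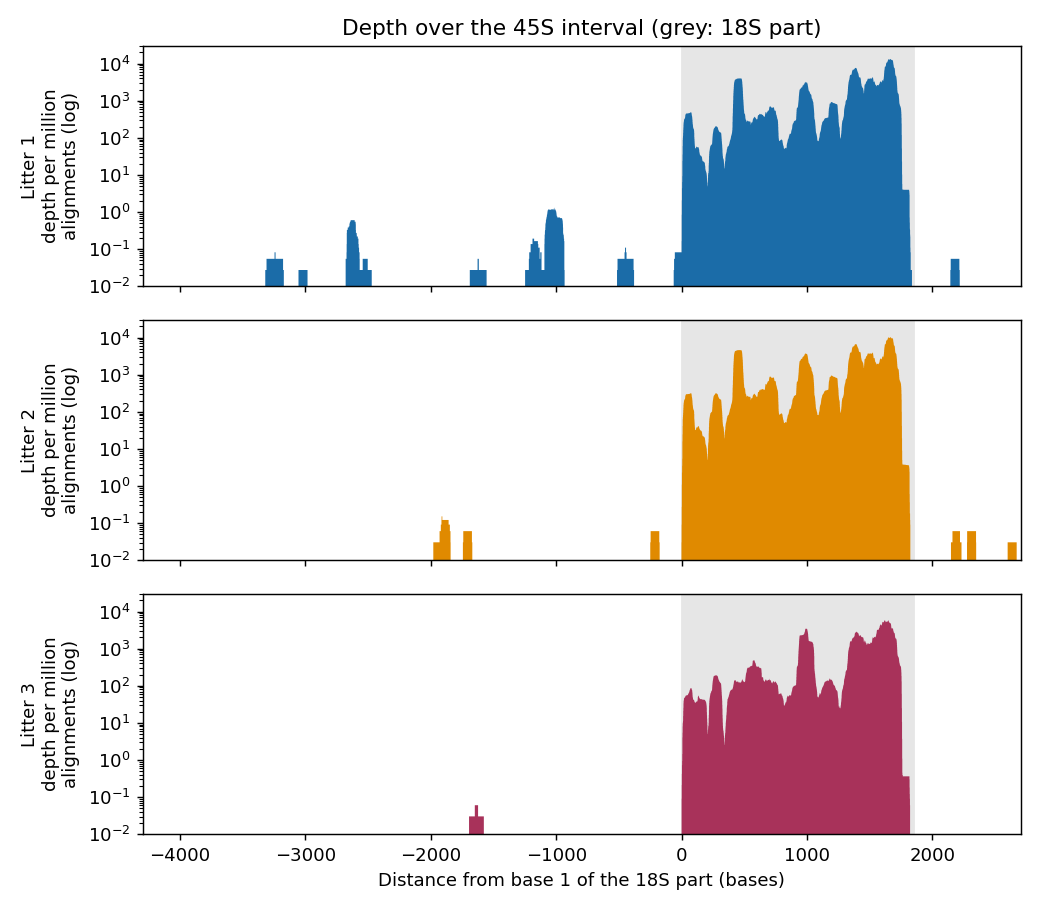
Depth per 1000000 alignments of the library (log axis) along the interval in litters 1, 2 and 3, against the distance in bases from base 1 of the 18S part, which is shaded grey. Depth rises at base 1 in all 3 litters and falls off before the end of the shaded part, and the bases outside it hold isolated blocks of depth or none.

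By part of the precursor, the alignments were those of 18S. Alignments lying wholly within the 1849 bases of 18S numbered 1564396, 1279048 and 703011, or 99.978%, 99.990% and 99.995% of the locus. The 4298 bases before 18S, which would hold the external transcribed spacer of the precursor, held 111, 9 and 2 alignments. Per kilobase of possible start positions this was 25008, 22630 and 12345 CPM within 18S against 0.746, 0.0670 and 0.0148 CPM upstream. The count per start position was therefore 33506 times higher within 18S in litter 1 (95% interval 27823 to 40730, exact Poisson for the upstream count) and 337866 times higher in litter 2 (177983 to 738887). In litter 3 the 2 upstream alignments gave a ratio of 835666 (231336 to 6900361). The order of the 3 ratios rests on upstream counts of 111 or fewer. The intervals take upstream alignments as independent of each other. In litter 1, 76 of the 111 lay in a single block, so its interval is too narrow. In litter 2, 5 of the 9 lay in 1 block, and in litter 3 the 2 lay in 1 block. Those intervals may be too narrow as well. The GRCm38 transcript that GENCODE lists just before 18S, Gm26917-202, has 69.1% GC against 55.4% in 18S, and the part of base composition or of alignment in the low upstream counts was not tested.

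The upstream alignments lay in 8 separate blocks, and most blocks were seen in a single library. The largest block, chr17:39982046-39982360, held 76 alignments in litter 1 and 0 in the others. The block chr17:39980615-39980822 held 24 in litter 1 and 0 in the others. Only chr17:39981550-39981738 was covered in every library, by 2, 2 and 2 alignments. Downstream of 18S, where the first internal transcribed spacer begins in the precursor, the 853 remaining bases held 2, 5 and 0 alignments. A count of 0 allows up to 3 alignments, or 0.000427% of the locus in litter 3.

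The borders of 18S were crossed almost nowhere. Across the 5′ border, 234, 116 and 31 alignments overlapped at least 1 upstream base, but those with at least 10 bases on each side numbered 1, 0 and 0. Base 1 itself was the start of 104, 63 and 17 alignments, and base 2 of 533, 345 and 86. At the fifth base before base 1 the starts had dropped to 3, 2 and 3. Alignments that join 18S to the base stretch before it were thus at the limit of counting in all 3 litters. Across the 3′ border there were 0 alignments in each litter. Taken as up to 3 alignments, as above, this allows up to 0.000192%, 0.000235% and 0.000427% of the locus. The upper ends of the 95% Wilson intervals were 0.000246%, 0.000300% and 0.000546%.

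At the 3′ end, depth ended before the RNA does. The last start with at least 100 alignments lay at 18S base 1683 in litters 1 and 2 and at base 1682 in litter 3, so that these alignments ended at bases 1754, 1754 and 1753. Depth was 29474, 23980 and 13289 alignments at base 1734 and 146, 124 and 12 at base 1764. The last covered bases were 1832, 1819 and 1817, so the final 17, 30 and 32 bases of 18S had no depth. By the last start with at least 100 alignments, the loss fell at the same place in the 3 litters, within 1 base. Depth last reached 100 alignments at bases 39985111, 39985109 and 39985052 in litters 1, 2 and 3, which lie farther apart. The loss bears on the count of 0 across the 3′ border, since alignments were already near 0 before that border, and its cause was not tested. The capitals in the stretch of bases 1730 to 1849 mark the sequence that lies past this point.

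The 3 litters also shared a lack of starts just before the run of G, as placed here. In the 58 start positions before it, 0, 0 and 0 alignments began, against 1070, 910 and 1427 in the 58 positions before those and 6888, 9550 and 6178 in the 58 after. Depth within the run fell to 178, 165 and 165 alignments. That was the lowest depth between bases 61 and 1700 in litters 1 and 2, both at base 203. In litter 3 the lowest depth, 85 alignments, lay at base 336. Because the gap was used to place 18S, it is no independent evidence of that placing. The cause of the gap was not tested.

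**Figure D2:**
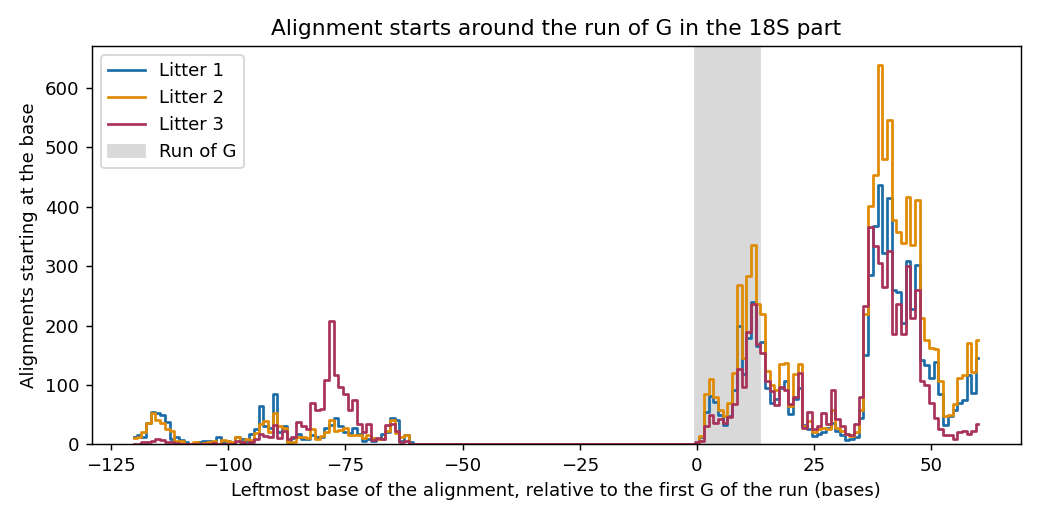
Number of alignments starting at each base in litters 1, 2 and 3, against the position relative to the first G of the run of 14 G (grey). Starts are at 0 in all 3 litters in the 58 bases before the run and resume within it.

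The remaining parts of the precursor could not be placed in the interval. No word of 20 bases of the 5.8S sequence was found in the 6 transcripts that GENCODE lists at this place in GRCm38, from the genes AY036118, CT010467.1, Gm26917 and Gm42418. RefSeq lists Rn28s1, a 28S entry of 420 bases, on another chromosome. Depth over 5.8S, 28S and the second internal spacer is not analysed here. The name 45S precursor therefore describes the annotation, while the values describe the 18S RNA. Alignments in the bases around it, where spacer would be read, came to at most 0.00709% of the locus upstream.

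Within 18S, depth was uneven and leaned to the 3′ side. Bases 1 to 600 held 12.6%, 15.1% and 5.40% of the starts in litters 1, 2 and 3, and bases 1201 to 1849 held 72.9%, 66.9% and 73.5%. The median start lay at base 1440, 1372 and 1475. Nearly all positions were used, with starts at 1591, 1585 and 1524 of 1778 possible bases, and 1510 of them were used in every litter. The 10 deepest of 70 bins of 100 bases held 94.0%, 93.2% and 95.9% of the depth of the interval (94.4% ± 1.39, SD, n = 3).

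The deepest bin was bases 1603 to 1702, printed above, at 10283, 8024 and 4599 in mean scaled depth, the depth per 1000000 alignments of the library (7635 ± 2862, SD, n = 3). Depth peaked at 480866 and 334608 alignments at chr17:39984960 in litters 1 and 2 and at 192411 alignments at chr17:39984942 in litter 3. Bases 1303 to 1402 came next in mean depth, at a scaled depth of 5150, 4299 and 1694, and litter 3 was lowest in both bins. Bases 1503 to 1602 stood at a scaled depth of 3329, 2801 and 3074, where litter 3 lay between the other litters. Bases 1403 to 1502 stood at a scaled depth of 3490, 3333 and 1821. The fifth, bases 403 to 502, was the only one of the 5 in the first 1000 bases, at a scaled depth of 3015, 3466 and 132. Between the first and last base covered in every litter, 5 bins had no depth, all of them upstream, and the first 3 were chr17:39981801-39981900, chr17:39981901-39982000 and chr17:39982401-39982500.

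**Figure D3:**
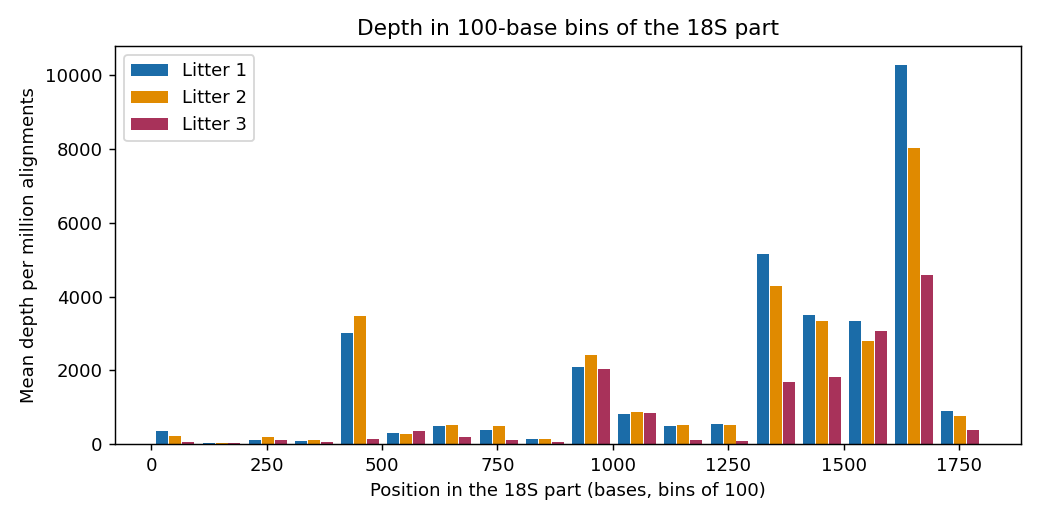
Mean depth per 1000000 alignments in bins of 100 bases along the 18S part, as bars for litters 1, 2 and 3 from 0. The bin of bases 1603 to 1702 is the highest in each litter, and the bin of bases 403 to 502 is high in litters 1 and 2 and low in litter 3.

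The alignments were piled on many positions and were not the work of a few. Each used start of the locus held 936, 797 and 459 alignments on average, against 6.96, 6.89 and 6.77 over the whole library. The 10 most used starts held 12.6%, 11.2% and 11.1% of the locus. Litters 1 and 2 shared the top start, chr17:39984924, with 23319 and 16355 alignments, and litter 3 had its own, chr17:39984893, with 10862. When each start was counted once, the level of the locus was 333.9 ± 12.4 used starts per 1000000 used starts (SD, n = 3), because a locus with nearly every start in use cannot rise further on that scale. Depth showed little relation to base composition. Over 18 bins of 40% to 77% GC, the correlation of GC with log2 depth was -0.07, 0.01 and -0.13 (Pearson, bins share reads and are not replicates).

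The shape of the profile was not used to choose the locus, and it was tested between litters. The alignments starting in each bin were set against those in the rest of the locus with a chi-square test, which takes counting error only as the noise. Of 36 bins with alignments, 18 differed at a Benjamini-Hochberg adjusted p under 0.05 and by more than 1.5-fold in share, with a largest adjusted p of 0.0186. With shares taken within each 1 kb window instead of the locus, the rule called 60.5% of the bins of other high windows. On that basis it called 12 of 19 bins (63.2%) in the locus. Of the 18 bins, 14 lay in 18S and 4 upstream. The 4 upstream bins held 22, 5, 7 and 64 alignments, each in 1 library only. Their smallest expected counts were 4.36, 0.991, 1.39 and 12.7, and those under 5 are low for a chi-square test. The largest adjusted p belongs to the bins of 5 and 7 alignments. For the bin of 5, the ratio came only from counts of 0 taken as 3 alignments. Bins with an expected count of at least 5 gave 15 calls. In the 14 bins of 18S, litter 3 had the highest share in 5 and the lowest in 9. Without litter 3 the count was 5, without litter 1 it was 12 and without litter 2 it was 16.

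Such differences were common in these libraries. In the other windows that averaged 100 CPM or more, 60.5% of 7264 bins differed by the same rule with shares taken within the window, and on that basis 12 of 19 bins of the locus (63.2%) did. At a limit of 2-fold the figures were 43.2% elsewhere and 7 of 19 (36.8%) in the locus. The number of differing bins was therefore near the background. The result concerns which stretches of 18S differed and by how much.

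The stretches described in the next paragraph are printed here. They are not all those with the largest shifts. Bases 903 to 1002 differed 2.11-fold in share, less than bases 1103 to 1202, which differed 3.28-fold and are not printed. The printed sequences were chosen after the values were seen, and they have no capitals.
18S bases 403 to 502: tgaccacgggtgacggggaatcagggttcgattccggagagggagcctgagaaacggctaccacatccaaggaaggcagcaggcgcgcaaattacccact
18S bases 903 to 1002: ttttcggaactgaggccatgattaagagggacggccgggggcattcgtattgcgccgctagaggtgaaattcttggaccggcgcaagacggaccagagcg
18S bases 1503 to 1602: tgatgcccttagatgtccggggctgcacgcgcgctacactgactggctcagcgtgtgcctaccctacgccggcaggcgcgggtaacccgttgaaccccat

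Bases 403 to 502 held 9.20% and 11.6% of the starts of the locus in litters 1 and 2 but 0.994% in litter 3. The highest share was 11.7 times the lowest. In scaled depth, litter 3 stood at 0.041 times the mean of the other two litters, while litters 1 and 2 were close, at 3015 and 3466. Bases 903 to 1002 went the other way, with 8.43%, 10.7% and 17.8% of the starts. Bases 1503 to 1602 held 10.6%, 9.82% and 29.6%. In starts per library, bases 903 to 1002 were nearly level, at 3748, 4299 and 3897 CPM, with litter 3 at 0.969 times the mean of the others. Bases 1503 to 1602 held more in litter 3, at 4714, 3950 and 6495 CPM, or 1.5 times the mean of the others. Their mean depth did not show this excess, with litter 3 at 1.00 times, since depth in a bin also counts alignments that begin in the bin before it. The neighbouring bases 1603 to 1702 held 30.5%, 25.9% and 17.9%.

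The other bins with the largest ratios of shares held few alignments. Bases 1703 to 1802, where starts run out, differed 5.63-fold on 145, 123 and 12 alignments. Bases 103 to 202, just before the run of G, held 813, 697 and 1390 alignments and differed 3.81-fold. Upstream, chr17:39982201-39982300 held 64 alignments in litter 1 and 0 in the others, a share at least 17.4 times that of litter 2 and at least 9.59 times that of litter 3 when 0 is taken as 3 alignments. The bin chr17:39980601-39980700 held 22 in litter 1 and 0 in the others, at least 6.0 times the share of litter 2 and 3.29 times that of litter 3 on the same floor. Both belong to the blocks seen in a single library.

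Across the 20 bins that touch 18S, scaled depth was lowest in litter 3 in 16 and highest in litter 3 in 2. The 2 were bases 103 to 202, at 34.9, 28 and 41.1, and bases 503 to 602, at 312, 276 and 353. The deficit of litter 3 was therefore not even along the RNA, with ratios from 0.041 to 1.31 in the bins within 18S against 0.518 for the whole locus.

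**Figure D4:**
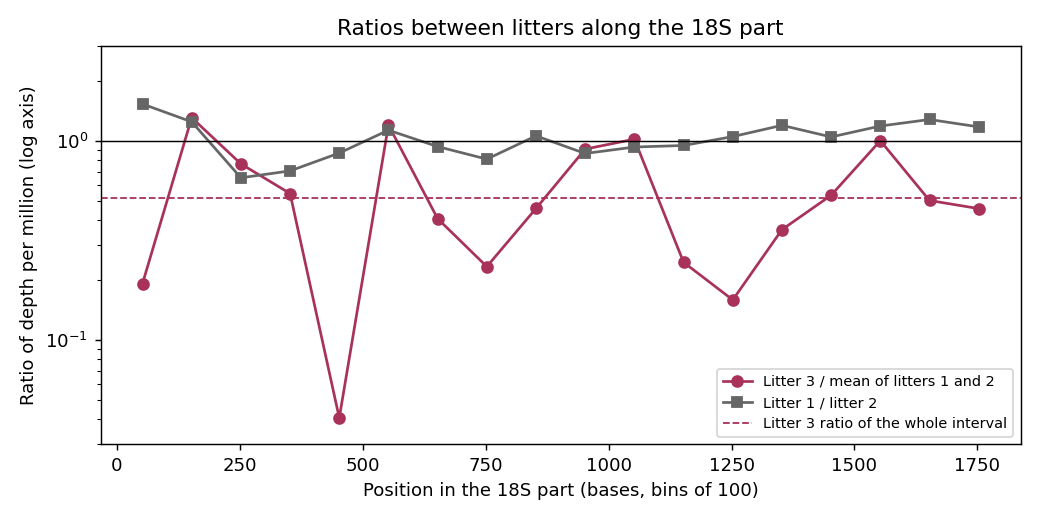
Ratio of scaled depth (log axis) in bins along the 18S part, for litter 3 over the mean of litters 1 and 2 (circles) and for litter 1 over litter 2 (squares), with the ratio of the whole interval as a dashed line. The circles range from 0.041, at bases 403 to 502, to 1.31, at bases 103 to 202.

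Litters 1 and 2 had the closest profiles. Over 18 bins, log2 depth correlated at 0.99 between litters 1 and 2, 0.85 between litters 1 and 3 and 0.84 between litters 2 and 3 (Pearson, with Spearman values of 0.99, 0.85 and 0.85). To turn the share profile of a litter into that of another, 6.79% of the alignments would have to move bins between litters 1 and 2, 30.4% between litters 1 and 3 and 28.6% between litters 2 and 3. The used starts themselves were mostly shared, at 97.0%, 94.9% and 94.4% of those used in either litter of a pair. With so many of the possible starts in use, such sharing is largely given by depth.

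Set beside other high windows, the first 18S window stood near the end of the range and the second did not. In chr17:39983001-39984000, 34.1% of the alignments were placed differently between litters on average of the 3 pairs, and 10 of 1044 other windows (0.958%) had a larger value. Among the 10 was chr6:3150001-3151000, at 42.9%, with 4495, 5100 and 605 CPM in litters 1, 2 and 3. It lies in the stretch of chromosome 6 with which the locus shares most of its recurring runs, runs of starts whose counts occur again at another place. In that window 65.1% of the alignments lay in recurring runs, so it may not be independent of the locus. The first 18S window carries the same limit. Within it, recurring positions held 71.8%, 72.8% and 60.5% of bases 403 to 502 in litters 1, 2 and 3. Its value without recurring positions was not computed. In chr17:39984001-39985000, 19.6% of the alignments were placed differently, and 203 of the others (19.4%) were larger. The median of the other windows was 12.7%, with quartiles of 7.06% and 18%. By pair, the first 18S window had 5.23% between litters 1 and 2 but 48.2% and 48.8% in the pairs with litter 3. The other windows showed the same order, with medians of 4.70%, 15.5% and 16.4%, so pairs with litter 3 were farther apart there too, by less than in the first 18S window. The large values of the first 18S window came mostly from bases 403 to 502, already described. That bin held 144018, 148626 and 6986 of the window's 231489, 231501 and 45444 alignments in litters 1, 2 and 3.

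**Figure D5:**
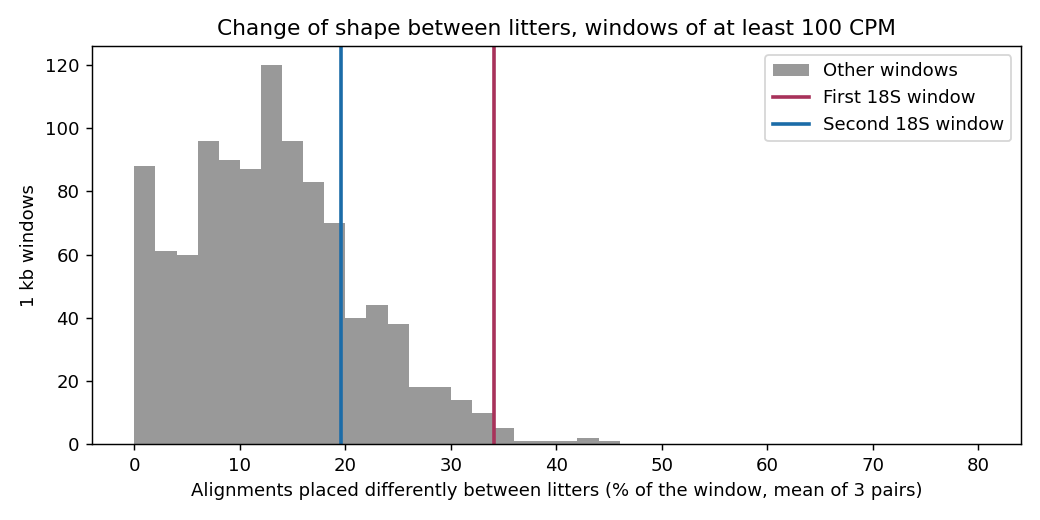
Number of 1 kb windows outside the locus that averaged 100 CPM or more, by the percent of alignments placed differently between litters (mean of 3 pairs). The line of the first 18S window, at 34.1%, lies in the right tail, and that of the second, at 19.6%, lies just above the upper quartile of 18%.

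Some alignments of the locus occur again elsewhere in the genome. Runs of 3 neighbouring starts whose counts in all 3 litters and spacing recur at another place held 10.2%, 11.8% and 4.01% of the alignments of the locus (8.67% ± 4.12, SD, n = 3), against 27.1%, 27.1% and 23.5% of the whole libraries. Of 1491 runs tested in the locus, 323 recurred. Their partners lay at chr6:3150001-3160000 for 253 runs, at chr16:18530001-18540000 for 62 and at chr1:56830001-56840000 for 8. Counts of such runs belong to several places at once.

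Recurrence was uneven along 18S and absent from its deepest stretch. In litters 1, 2 and 3 it held 96.2%, 95.3% and 94.2% of bases 3 to 102. It held 0% of bases 103 to 202 in each litter, and 80.4%, 80.7% and 86.2% of bases 703 to 802. In bases 403 to 502, 71.8%, 72.8% and 60.5% of the alignments lay at recurring positions. The litter difference there stayed without them, at 40683, 40385 and 2758 alignments. From base 1303 on the share was 0% in every bin and litter. Without recurring positions in the locus and in the totals, the locus stood at 54823, 48653 and 27534 CPM, and 18 bins again differed between litters.

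The other ribosomal RNAs that could be set beside it are those of the mitochondrial ribosome, mt-Rnr1 of its small subunit and mt-Rnr2 of its large subunit. They are made from the mitochondrial genome, apart from the nucleolus. Per kilobase, the 18S part stood at 24051, 21763 and 11871 CPM (RPKM) in litters 1, 2 and 3. On the same scale mt-Rnr1 stood at 1933, 1526 and 5920 RPKM and mt-Rnr2 at 2309, 2527 and 3693. Litter 3 was lowest in 18S and highest in both mitochondrial RNAs, at 0.518, 3.42 and 1.53 times the mean of the other two litters. The ratio of 18S to mt-Rnr1 was 12.4, 14.3 and 2.01, and that of 18S to mt-Rnr2 was 10.4, 8.61 and 3.21. Borders of the mitochondrial genes come from GRCm38, on a chromosome of the same length of 16299 bases in the files.

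The windows whose order over the litters came nearest to that of the locus are given here. Their lower level follows from the choice of the locus as the place of the highest window. Likeness was the distance between log2 CPM values centred on their mean over the 3 litters, among the 1044 windows that averaged 100 CPM or more. The nearest, chr12:99920001-99921000, held 132, 125 and 65.0 CPM. The next, chr5:72968001-72969000, held 154, 135 and 77.4 CPM. The window chr19:18002001-18003000 followed, with 121, 115 and 63.6 CPM, of which 70.7% lay in recurring runs. Then came chr18:34475001-34476000 with 185, 170 and 97.8 CPM. The last of the 5, chr5:46087001-46088000, held 151, 135 and 78.6 CPM. With 3 libraries such likeness is a description only.

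The genes that make or process the precursor (RNA polymerase I subunits and factors, and nucleolar processing factors) and the markers of oocytes and of cumulus and granulosa cells are not analysed here, because the annotation at hand is of another build than the files. The labelled cell type was therefore not checked against its markers.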

How the data were processed

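Total RNA of 3 oocyte libraries, 1 per litter, was amplified and sequenced, per the labels' protocols. Reads were aligned with Bowtie to mm9, per the submitters' processing notes. Its version and the placements it allowed per read are not stated there. The authors deposited depth per base as an unscaled signal (coverage) for each library, without strand.

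From this signal, alignment starts were recovered by taking every alignment as 72 gapless bases, since 99.9% of isolated blocks had that length. This gave 0 negative counts. Alignments were counted by leftmost base in 1 kb windows and 100-base bins and scaled to CPM. Windows with a mean under 10 or 100 CPM were left out of the backgrounds. Bins were compared by a chi-square test with Benjamini-Hochberg adjustment. Intervals of shares are 95% Wilson intervals, and those of ratios to upstream counts are exact Poisson. Tests and intervals cover counting error only, each litter being 1 library. The scripts were tested on simulated data. Tools were Python 3.11.15, numpy 2.4.6, pandas 2.3.3, scipy 1.17.1 and matplotlib 3.10.9.

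Named were the 7 windows, the 5 deepest and 3 lowest bins, the 5 differing bins with the largest ratio, mt-Rnr1, mt-Rnr2 and the 5 nearest windows. Members and lists were chosen with earlier results of these data known. Alternatives covered scaling, counting each start once, bin width, fold limit, run minimum, recurring positions and each litter left out.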

Additional observations from a re-analysis of the deposited data

How the results depend on the processing

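The level of the locus stayed within 1 SD of 35555 CPM under other totals, size factors and without recurring positions, and leaving out each litter gave 31096 to 42358 CPM. Counting each start once moved it to 333.9. The share of the highest window, 86.9%, became 59.7% with each start counted once and 93.6% without recurring positions, and 83.5% to 89.4% with a litter left out. The share of depth in the 10 deepest bins, 94.4%, became 96.0% with bins of 50 bases, 92.5% with bins of 200 bases, 96.2% by leftmost base and 62.2% with each start counted once. The 18 bins that differed between litters became 2 with each start counted once and 5 to 16 with a litter left out, with 5 without litter 3. A fold limit of 2 gave 15 bins, no limit 23, and bins with an expected count of at least 5 gave 15. The cause of these moves was not tested beyond the construction of each setting. The settings on recurring positions and expected counts were chosen after seeing the data. No paired analysis was possible because only 1 group was sampled. Depth did not limit most 18S values, but bases 1703 to 1802 held only 145, 123 and 12 starts in litters 1, 2 and 3. The bases before 18S held at most 111 alignments a litter, and strand and copies of the locus were not analysed here.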
